A study of Mus musculus with 6 samples.

Results

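The genes described here encode 8 structural proteins of the myelin sheath, *Mbp*, *Pmp22*, *Prx*, *Mag*, *Mal*, *Cnp*, *Pmp2* and *Gpm6b*, as counted in RNA from the mouse aorta. They were found by symbol among the 55341 genes of the read-count table, which held all 8, and 6 of them had enough reads to enter the comparison of the genotypes. The 8 genes were chosen by their role in myelin together with measured values of these libraries, the counts compared between knockout and wild type, so their differences between the genotypes are given as a description and carry no test. RNA of the vessel was sequenced from 6 mice, 3 of them miRNA-26b-/- and 3 miRNA-26b+/+, with a library for each. The deposited labels put M2626, M2627 and M2628 under the genotype KO miRNA26B and M2629, M2630 and M2631 under the genotype naive, and these names are used for the libraries here.

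The mice were 8 weeks old, were fed chow and carried the strain name C57BL/6NCrl in both groups. The miRNA-26b-/- line was made in R1/E embryonic stem cells of 129/Sv origin by placing loxP sites around *miR26b*, a microRNA gene inside the host gene *Ctdsp1*, and the segment was removed by tamoxifen in animals carrying CreERT2, a transgene later lost by breeding. The expression pattern of CreERT2 is not given in the sources used here. The tissue was the arch and the thoracic part of the aorta by the study's methods, whereas the deposited labels give it as aortic endothelial cells. Smooth muscle transcripts were far more abundant than endothelial ones in all 6 libraries, with *Acta2*, smooth muscle actin, at a mean of 16184 counts-per-million (CPM) and *Pecam1*, an endothelial adhesion molecule, at 465 CPM, so the labelled cell type is not the one whose markers were most abundant.

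Myelin is a spiral of plasma membrane that a glial cell wraps around an axon, and in peripheral nerves that cell is the Schwann cell. Its wraps are pressed together as compact myelin, in which adhesive and basic proteins seal neighbouring membranes, while the innermost turn, the outermost turn and the channels between them keep their cytoplasm and hold a separate set of proteins. Nerves run in the adventitia of the aorta: most sympathetic axons there are bundled by Schwann cells without myelin, and myelinated fibres are found mainly among sensory nerves such as those of the aortic arch baroreceptors.

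By the study's account the knockout lacks both mature products, miR-26b-3p and miR-26b-5p. The product miR-26b-5p is shown first, because its seed (bases 2 to 8, in capitals) defines the sites it could pair with. Sites for miR-26b-3p were not searched. The mature sequences are those of RefSeq on GRCm38.p6, and miR-26b-5p lies on chromosome 1 from 74394324 to 74394344, plus strand. Its relative miR-26a-5p, made from 2 other loci, has the same seed, is shown for comparison and is still encoded in the knockout.
mmu-miR-26b-5p: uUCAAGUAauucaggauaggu
mmu-miR-26a-5p: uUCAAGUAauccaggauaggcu
In the longest 3′ untranslated region (UTR) that GENCODE M21 gives each gene, matches to this seed were sought as TACTTGAA (8mer), TACTTGA (7mer-m8) and ACTTGAA (7mer-A1), on the transcript strand. None of the 8 myelin genes held any of the 3, in UTRs from 535 bases (*Mag*) to 4701 bases (*Prx*), and none did in any other annotated UTR of theirs. Over all 21020 genes with an annotated 3′ UTR, of median length 961 bases, 18.3% held at least 1 of these matches and 4.19% held the 8mer.

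The 250 bases before the annotated transcription start were read from RefSeq (GRCm38.p6) for the 6 genes that matched by symbol, *Pmp22*, *Prx*, *Mag*, *Mal*, *Cnp* and *Gpm6b*, which gave 11 windows. They are shown where they help to read the counts. *Pmp22* has several starts: the most upstream one is known from myelinating Schwann cells, and starts farther down are used in many tissues, so that a count per gene adds the products of both. The windows of the first (chr11:63128732-63128981) and the second start (chr11:63131207-63131456), both on the plus strand, and that of *Prx* (chr7:27499074-27499323, plus strand) are printed with the searched words in capitals.
Pmp22 first start: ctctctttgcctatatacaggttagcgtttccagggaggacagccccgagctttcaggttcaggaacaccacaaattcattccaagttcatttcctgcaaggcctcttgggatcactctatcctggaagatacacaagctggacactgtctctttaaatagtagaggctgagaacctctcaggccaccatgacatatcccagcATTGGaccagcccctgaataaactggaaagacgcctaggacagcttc
Pmp22 second start: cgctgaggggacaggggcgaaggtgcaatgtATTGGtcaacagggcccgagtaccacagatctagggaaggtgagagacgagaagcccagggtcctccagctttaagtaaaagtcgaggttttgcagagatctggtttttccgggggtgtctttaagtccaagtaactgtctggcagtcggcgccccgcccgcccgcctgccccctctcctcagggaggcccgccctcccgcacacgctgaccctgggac
Prx: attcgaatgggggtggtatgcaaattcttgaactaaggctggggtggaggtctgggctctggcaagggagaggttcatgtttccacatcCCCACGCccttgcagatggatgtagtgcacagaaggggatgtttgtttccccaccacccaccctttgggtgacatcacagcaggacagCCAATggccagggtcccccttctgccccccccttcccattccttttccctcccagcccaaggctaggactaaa
The first *Pmp22* window had 48.8% G and C and 3 CpG pairs, the second 61.2% and 14. The words searched, on both strands, were ACAAAG and ACAATG (cores bound by SOX proteins), GCGTGGG (bound by EGR proteins), TATAAA and CCAAT, and they do not overlap one another in these windows. GCGTGGG was in the window of *Prx* alone of the 6 genes, against 4.3% of all 32851 windows. ACAAAG was in 4 windows, those of *Cnp*, *Gpm6b* and 2 overlapping ones of *Mag* that share the same word, against 16.5% of all windows. CCAAT was in windows of *Prx*, *Mag* and *Pmp22* and in 33.8% of all windows, while ACAATG and TATAAA were in none of the 11. Short words of this kind describe the sequence and do not show that a protein was bound. The ACAAAG words of *Cnp* (chr11:100574772-100574777) and *Gpm6b* (chrX:166238878-166238883) stand 167 and 65 bases before their starts, on the gene's strand.
Cnp word: cttttaaggaACAAAGaggtggcgtg
Gpm6b word: ctccgggcgcACAAAGcccccggcgc

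Of the compact myelin genes, *Mbp* differed most between the genotypes. It encodes myelin basic protein, which holds the cytoplasmic faces of the membrane together, and its locus (chromosome 18 of GRCm38, 82475146 to 82585637) also makes longer golli transcripts that are not confined to glia and are not told apart in these counts. *Mbp* had 2506, 2383 and 1558 counts in M2626, M2627 and M2628, and 226, 473 and 850 counts in M2629, M2630 and M2631. Scaled to library size these were 97.9, 71.0 and 55.2 CPM in the miRNA-26b-/- libraries and 7.38, 17.2 and 28.1 CPM in the miRNA-26b+/+ libraries. The lowest knockout library thus stood above the highest wild-type library, and the wild-type libraries differed among themselves more widely in proportion than the knockout ones. The ratio of the group means was 4.25 and the fitted log2 fold change was 2.08 (standard error 0.338).

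*Pmp22*, peripheral myelin protein 22, is the tetraspan membrane protein whose gene dosage matters in Charcot-Marie-Tooth neuropathy, and it is also made by fibroblasts and other cells. It lies on chromosome 11 from 63128982 to 63159547 and was by far the most abundant of the 8. It had 7453, 10458 and 6228 counts in the knockout libraries (291, 312 and 221 CPM) and 5932, 5180 and 6424 in the wild-type libraries (194, 189 and 213 CPM). The groups did not overlap in CPM, but M2628 at 221 and M2631 at 213 nearly met. Its log2 fold change was 0.47 (standard error 0.155), the smallest of the 6.

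*Pmp2*, which encodes the fatty acid binding protein of peripheral myelin, had no count in any library (chromosome 3, 10179851 to 10183929). Its exons share 1224 of 1408 bases with *Gm37389* on the same strand, which was at 0 too. A read over both genes would have been counted for each, so the overlap does not take reads from *Pmp2*. A count of 0 allows up to 3 counts, between 0.0894 and 0.117 CPM depending on the library, and covers counting error only.

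The genes of the uncompacted membranes were *Cnp*, *Prx* and *Mag*. *Cnp* encodes a phosphodiesterase that keeps cytoplasmic channels of the sheath open, and it is expressed at a low level in many cells (chromosome 11, 100574904 to 100591729). Its counts were 1018, 1089 and 1434 in the knockout libraries (39.8, 32.5 and 50.8 CPM) and 754, 534 and 803 in the wild-type libraries (24.6, 19.5 and 26.6 CPM). The groups did not overlap, and M2628, the lowest knockout library for *Mbp*, was the highest for *Cnp*. The log2 fold change was 0.79 (standard error 0.250). Of its exon bases, 4.23% are shared with *Dnajc7* on the other strand, whose reads cannot be separated there because the counting took no account of strand.

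*Prx* encodes periaxin, which links the outer Schwann cell membrane to its basal lamina and is used as a marker of myelinating Schwann cells (chromosome 7, 27499324 to 27520214). How specific it is to them in the vessel wall was not tested. It had 929, 811 and 727 counts in the knockout libraries (36.3, 24.2 and 25.8 CPM) and 403, 356 and 801 in the wild-type libraries (13.2, 13.0 and 26.5 CPM). The groups overlapped, since the wild-type library M2631 lay above M2627 and M2628. The log2 fold change of 0.69 (standard error 0.319) became 1.12 without M2631. The antisense gene *Gm15541* shares 5.38% of the exon bases of *Prx* and had at most 86 counts in a library.

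*Mag*, the myelin-associated glycoprotein of the innermost membrane that faces the axon (chromosome 7, 30899176 to 30914873), had 45 counts in M2627 and none in the other 5 libraries, and was not tested. In M2627 markers of sympathetic neurons were also highest, as described further on.

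The proteolipids were *Gpm6b* and *Mal*. *Gpm6b*, a tetraspan proteolipid found in glia and neurons (chromosome X, 166238911 to 166388988), had 718, 1183 and 444 counts in the knockout libraries (28.1, 35.3 and 15.7 CPM) against 201, 327 and 269 in the wild-type libraries (6.56, 11.9 and 8.90 CPM). The groups did not overlap, with a log2 fold change of 1.56 (standard error 0.371). *Mal*, a raft protein of compact myelin that epithelial cells and T cells make as well (chromosome 2, 127633226 to 127656695), had 422, 455 and 128 counts (16.5, 13.6 and 4.54 CPM) against 108, 104 and 209 (3.53, 3.79 and 6.92 CPM). Here the knockout libraries split, M2626 and M2627 being above every wild-type library and M2628 below M2631, and the log2 fold change was 1.27 (standard error 0.532).

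Beside *Mal*, the summed level of 7 epithelial markers was 27.2, 23.0 and 16.7 CPM in the knockout libraries and 16.5, 7.40 and 11.1 CPM in the wild-type libraries, and that of 8 T cell markers was from 0.626 to 5.46 CPM. The part of these cells in the *Mal* values was not tested.

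**Figure D1:**
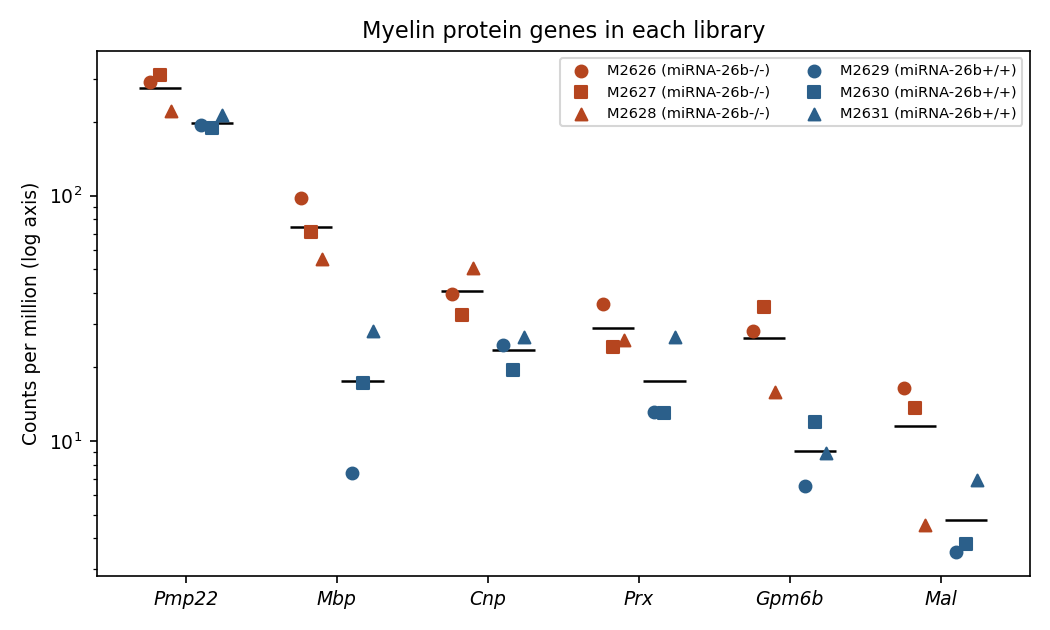
CPM (log axis) of the 6 tested myelin genes in each library; each point is 1 library (red miRNA-26b-/-, blue miRNA-26b+/+) and the black lines are group means. The groups are apart for *Pmp22*, *Mbp*, *Cnp* and *Gpm6b*, and overlap for *Prx* and *Mal*.

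In 4 of the 6 tested genes, *Mbp*, *Pmp22*, *Cnp* and *Gpm6b*, every knockout library lay above every wild-type library, a pattern shown by 5.65% of all 16017 genes tested. Since the genes were chosen with this contrast known, nothing is read from that count. The median log2 fold change was 1.03 over the 6 genes and 0.01 over all genes tested. The knockout libraries did not keep 1 order: M2626 was the highest library for 3 genes, M2627 for 2 and M2628 for 1, while M2629 and M2630 were each the lowest for 3.

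In these bulk libraries, more Schwann cells in the piece of tissue and more RNA of a gene per Schwann cell cannot be told apart. Summed over the 8 genes without *Pmp22*, the level was 219, 178 and 152 CPM in M2626, M2627 and M2628 and 55.2, 65.4 and 97.0 CPM in M2629, M2630 and M2631. *Pmp22* made up 57.1%, 63.7% and 59.2% of the whole sum in the knockout libraries and 77.8%, 74.3% and 68.7% in the wild-type ones. The composition of the sum therefore differed, with *Mbp* at 0.336, 0.228 and 0.250 of the CPM of *Pmp22* in the knockout libraries and at 0.0381, 0.0913 and 0.132 in the wild-type libraries.

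Levels of different genes were compared per length, as CPM per kilobase of exon (RPKM). Over all 6 libraries the mean level was 100.5 RPKM for *Pmp22*, 8.87 for *Cnp*, 5.45 for *Mbp*, 4.15 for *Prx*, 3.17 for *Gpm6b*, 2.93 for *Mal*, 0.0549 for *Mag* and 0 for *Pmp2*. *Pmp22* was first in every library. In the knockout group the order was *Pmp22* (116.7 ± 20.3), *Cnp* (11.3 ± 2.54), *Mbp* (8.83 ± 2.55), *Prx* (5.15 ± 1.18), *Gpm6b* (4.71 ± 1.76) and *Mal* (4.15 ± 2.24 RPKM; SD, n = 3). The library ranges of *Cnp* and *Mbp* overlapped there, as did those of *Prx*, *Gpm6b* and *Mal* from neighbour to neighbour. In the wild-type group *Pmp22* (84.2 ± 5.35) and *Cnp* (6.47 ± 1.01) again came first, followed by *Prx* (3.14 ± 1.39), *Mbp* (2.08 ± 1.23), *Mal* (1.71 ± 0.679) and *Gpm6b* (1.63 ± 0.479 RPKM; SD, n = 3), and each of the last 4 overlapped its neighbour. *Mbp* stood at rank 2 or 3 of the 6 genes in each knockout library, but at rank 6 in M2629, 5 in M2630 and 4 in M2631.

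The myelin genes that the selection did not name were then read from the fit over all genes, in a list of 26 proteins of compact myelin, the paranodes and the nodes of Ranvier, of which 23 were tested. At an unadjusted p under 0.05 by edgeR's quasi-likelihood test, 5 were higher in miRNA-26b-/- (*Cadm4*, *Ncmap* and *Cmtm5* among them) and 2 were lower (*Dag1* and *Itgb4*), where 3.4% of all genes tested were higher and 3.07% lower by the same rule. None of the 23 passed an adjusted p of 0.05 in that test, nor with DESeq2 or limma voom, which called 6 and 5 of the list at the unadjusted threshold; over all genes the adjusted threshold was passed by 1 gene (0.00624%). DESeq2 and limma voom called 840 and 847 of all 16017 genes tested at the unadjusted threshold. Of the 23, 17 had a fitted value above 0, and the median log2 fold change was 0.28.

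*Cadm4*, an adhesion molecule of the internodal membrane, had 228, 511 and 278 counts against 14, 117 and 237, with a log2 fold change of 1.47 ± 0.570 (standard error; edgeR adjusted p = 0.736). *Ncmap*, a protein of uncompacted myelin, had 122, 108 and 53 counts against 0, 21 and 27, with groups that did not overlap. *Cmtm5* had 45, 71 and 0 counts against none in the wild-type libraries, at least 12.6-fold higher in the mean when the wild-type level is set to 3 counts a library.

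The most abundant genes of the list had smaller fitted differences. *Dag1*, which encodes the dystroglycan that many cells use to bind laminin, had 537 ± 26.4 CPM in knockout and 654 ± 64.8 CPM in wild-type libraries (SD, 3 libraries each). The fitted log2 difference was -0.28 ± 0.129 (standard error), with an adjusted p of 0.756 (edgeR). The tetraspanins *Cd9* and *Tspan2*, which smooth muscle expresses too, had log2 fold changes of -0.01 and -0.11 (standard errors 0.128 and 0.142). *Itgb4*, an integrin chain of Schwann, perineurial and epithelial cells, stood at -0.70 (standard error 0.289, adjusted p = 0.736, edgeR). Of the central myelin proteins on the list, *Mog* and *Mobp* had no count in any library.

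**Figure D2:**
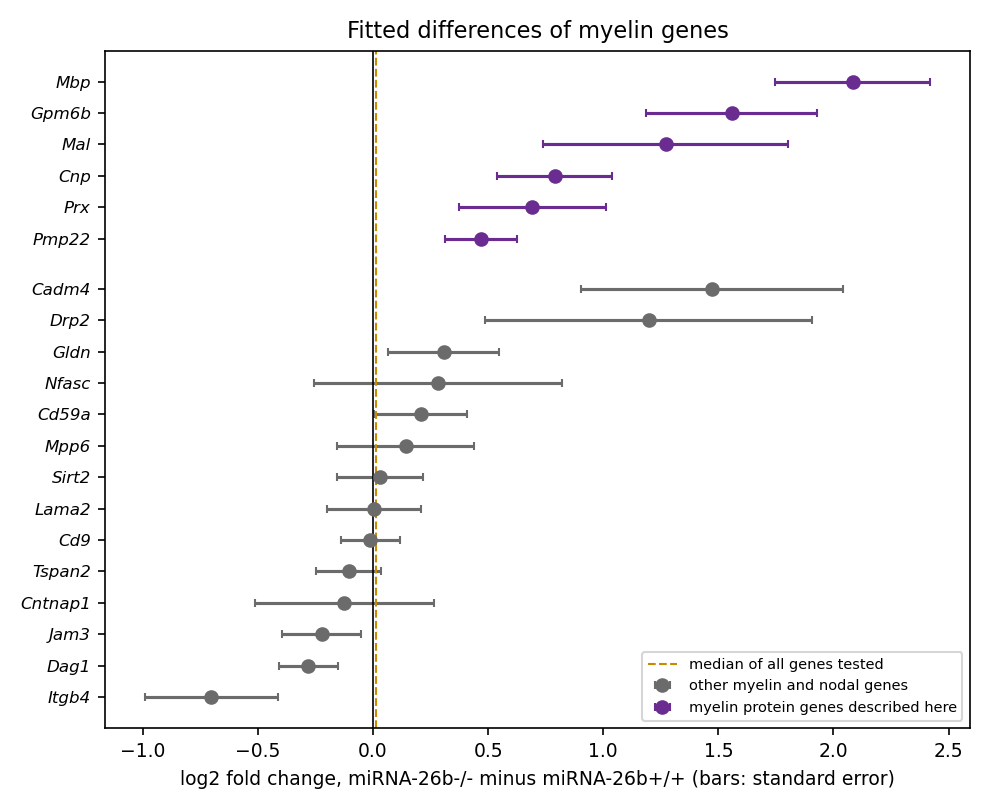
Fitted log2 fold change (miRNA-26b-/- minus miRNA-26b+/+, x axis) with its standard error for the 6 tested myelin genes (purple) and for the genes of the other myelin list with a mean of at least 5 CPM (grey, some genes not shown); the dashed line is the median of all genes tested. *Mbp* (2.08) stands farthest to the right and *Itgb4* (-0.70) farthest to the left.

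The number of the other myelin genes past the unadjusted threshold changed with the libraries used, in both directions. With all libraries 5 were higher and 2 lower. Without M2626, and also without M2627, 4 were higher and 0 lower. Without M2629 3 were higher and 2 lower, and without M2630 or M2631 5 were higher and 0 lower. Without both M2627 and M2630, the libraries with the most sympathetic neuron transcripts, 19 of the list could be tested. Of these 1 was higher and 0 lower. Without M2628 6 were higher and 1 lower, and 2 of these then passed an adjusted p of 0.05 (edgeR). Over all genes tested, the number past the unadjusted threshold was 904, 898, 838, 778 and 686 without M2626, M2627, M2629, M2630 and M2631. It was 607 without both M2627 and M2630, in place of 1036. Without M2628 it was 1692 of 15654, and 82 genes passed the adjusted threshold.

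Lipid synthesis supplies the cholesterol and galactolipids of the sheath. Of 15 genes listed, 14 were tested. At an unadjusted p under 0.05 (edgeR) 2 were higher and none lower, where 3.4% of all genes tested were higher and 3.07% lower. None passed an adjusted p of 0.05 with edgeR, DESeq2 or limma voom. DESeq2 and limma voom called 3 and 2 at the unadjusted threshold, against 840 and 847 of all 16017 genes tested. *Fa2h*, which makes the hydroxylated fatty acids of myelin galactolipids, had 31 counts in M2626, 129 in M2627 and none elsewhere, at least 16.5-fold higher in the mean against a floor of 3 counts a library. The abundant *Scd2* and *Cers2* had log2 fold changes of 0.05 and 0.11. The galactolipid enzyme *Ugt8a*, in contrast, had 81, 100 and 21 counts against 98, 35 and 86, and was looked up after its values had been seen. The median of the 14 was 0.12. The number past the unadjusted threshold was 1 without M2627, M2629, M2630 or M2631, and 0 without both M2627 and M2630. Over all genes tested that number was 898, 838, 778, 686 and 607 in the same order, in place of 1036.

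Schwann cells myelinate when neuregulin acts on ERBB2 and ERBB3 receptors and when SOX10 and EGR2 turn on the myelin genes. Among 18 tested regulators of 19 listed, 3 were higher at an unadjusted p under 0.05 (*Lgi4*, *Erbb3* and *Sox10*) and 1 was lower (*Egr2*) by edgeR's quasi-likelihood test. Over all genes tested, 3.4% were higher and 3.07% lower by the same rule. None of the 18 passed an adjusted p of 0.05 by that test, DESeq2 or limma voom. DESeq2 and limma voom each called 2 at the unadjusted threshold, against 840 and 847 of all 16017 genes tested. *Lgi4*, a secreted protein needed for axon sorting, had 339, 603 and 681 counts against 257, 243 and 324, a log2 fold change of 0.99 ± 0.351 (standard error; edgeR adjusted p = 0.736). *Erbb3* had 193, 270 and 130 counts against 26, 95 and 54, a log2 fold change of 1.77 ± 0.636 (standard error; edgeR adjusted p = 0.736). In both genes every knockout library was above every wild-type library.

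*Sox10*, the transcription factor of the Schwann cell lineage, had 230, 340 and 66 counts in the knockout libraries and 36, 24 and 160 in the wild-type libraries. The groups overlapped, with M2628 below M2631, as for *Mal* (log2 fold change 1.54, standard error 0.718, adjusted p = 0.769, edgeR). The value was 2.80 without M2631 and 0.78 without both M2627 and M2630, and *Sox10* was no longer past the unadjusted threshold with DESeq2, limma voom, the earlier quasi-likelihood method, either other filter on low counts, or without M2626, M2627, M2629 or M2630. *Egr2*, the factor that drives *Mbp* and *Prx* in Schwann cells and is also induced in other cells by growth signals, had 60, 45 and 157 counts against 167, 349 and 183, and the groups overlapped in CPM, with M2628 at 5.57 just above M2629 at 5.45. Its log2 fold change was -1.40 ± 0.619 (standard error; edgeR adjusted p = 0.748). It was -0.93 without M2630, -2.16 without M2628 and -0.51 without both M2627 and M2630, and *Egr2* was no longer past the unadjusted threshold with DESeq2, limma voom, the earlier quasi-likelihood method, or without M2626, M2627 or M2630. The most abundant regulators, *Srebf2*, *Tead1* and *Nab1*, which most cells express, had log2 fold changes between -0.21 and 0.11. Without M2626, M2627, M2629 or M2630 the number of regulators past the unadjusted threshold was 2 in place of 4, and without both M2627 and M2630 it was 1. Over all genes tested that number was 904, 898, 838, 778 and 607 in the same order, in place of 1036.

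Markers of Schwann cells outside the myelin programme were read from a list of 22 genes, 21 of them tested. By edgeR's test 7 were higher at an unadjusted p under 0.05 and none lower, where 3.4% of all genes tested were higher and 3.07% lower. None passed the adjusted threshold with edgeR, DESeq2 or limma voom. DESeq2 and limma voom called 5 and 4 at the unadjusted threshold, against 840 and 847 of all 16017 genes tested. The median log2 fold change was 1.02, with 17 fitted values above 0 and 4 below. In 6 of the 21 every knockout library was above every wild-type library, and in 0 every one was below. Over all genes tested these shares were 5.65% and 5.88%. The summed level of the list is carried by *Ncam1* and *Cryab*, which muscle cells also express (log2 fold changes -0.02 and -0.12), and it overlapped between the groups, 728 to 898 CPM in knockout and 722 to 778 CPM in wild-type libraries. Without M2628, 11 genes of the list were higher and 1 was lower at the unadjusted threshold, where 1692 of all 15654 genes tested passed it. The number was 4 without M2627, 4 without M2629 and 3 without both M2627 and M2630. Over all genes tested it was 898, 838 and 607 in the same order.

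The libraries also differed in markers of other cells. Of 12 oligodendrocyte markers, 8 were at 0 in all libraries (*Mog*, *Mobp*, *Opalin*, *Olig2*, *Nkx2-2*, *Ermn*, *Hapln2* and *Klk6*), and the sum of the rest was carried by *Myrf* and *Nkx6-2*, at 47.1 and 33.4 CPM on average. The 17 sympathetic neuron markers summed to 107, 649 and 86.4 CPM in the knockout libraries and to 109, 185 and 120 CPM in the wild-type libraries, and all 17 were highest in M2627. *Th* and *Dbh*, enzymes of noradrenaline synthesis, had 1244 and 2892 counts in M2627, 98 and 413 in M2630 and none elsewhere. *Mbp* was highest in M2626, and its log2 fold change was 2.11 without M2627 and M2630. Over the other 5 tested myelin genes the value without these libraries was between 0.33 (*Pmp22*) and 1.49 (*Gpm6b*). The remaining libraries still differ in markers of other cells, and the part of nerve tissue in these values was not tested.

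Skeletal muscle markers, 8 genes, summed to 35.8, 94.9 and 8.51 CPM in the knockout libraries and to 6.56, 13.2 and 3.74 CPM in the wild-type ones, with *Ckm* and *Acta1* the most abundant. M2626 and M2627 were above every wild-type library and M2628 was within their range, as for *Mal* and *Sox10*. Among the wild-type libraries, M2631 was lowest for the muscle markers and highest for *Mal* (6.92 CPM) and *Sox10* (5.29 CPM). The 8 endothelial markers summed to 451 and 474 CPM in M2626 and M2627, and to between 1159 and 1671 CPM in M2628 and the 3 wild-type libraries. Cardiac markers were high in M2627 (450 CPM) and M2630 (459 CPM) and between 126 and 165 CPM elsewhere, and adipocyte markers were from 484 to 1928 CPM with M2627 the highest. Perineurial and endoneurial markers summed to 135, 185 and 204 CPM in the knockout and from 206 to 214 CPM in the wild-type libraries. Smooth muscle markers overlapped, 31482 to 39875 CPM against 34492 to 42409 CPM, as did fibroblast markers (12399 to 20419 against 13989 to 16719 CPM), macrophage markers (329 to 943 against 557 to 643 CPM) and sensory neuron markers (3.67 to 34.4 against 6.04 to 14.8 CPM). At an unadjusted p under 0.05 (edgeR), 6 of 8 tested skeletal muscle markers were higher in the knockout, as were 7 of 15 sympathetic neuron, 1 of 4 sensory neuron and 2 of 5 epithelial markers. Over all genes tested, 3.4% were higher and 3.07% lower by this rule. Lower by the same rule were 2 of 10 perineurial and endoneurial, 1 of 8 smooth muscle and 1 of 8 fibroblast markers, and none passed in either direction among the 8 endothelial, 8 adipocyte, 7 cardiac, 8 macrophage, 3 T cell and 2 oligodendrocyte markers tested. The skeletal muscle genes *Tnnt3* and *Mylpf*, picked out after their values were seen, were higher in every knockout library than in every wild-type library. The part of these cells in the myelin values was not tested.

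**Figure D3:**
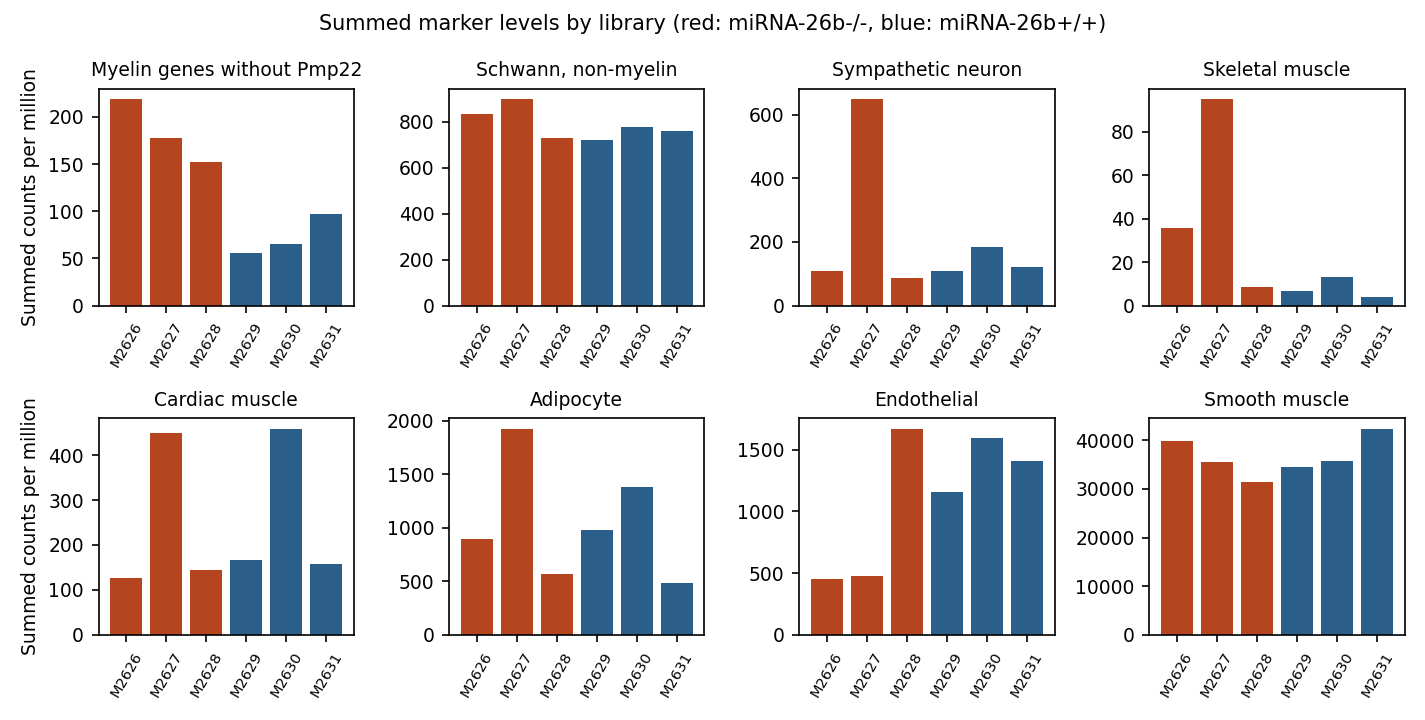
Summed CPM in each library (bars, linear axes from 0; red miRNA-26b-/-, blue miRNA-26b+/+) for the myelin genes without *Pmp22* and for 7 marker lists. The myelin sum is at least 152 CPM in each knockout and at most 97.0 CPM in each wild-type library, while neuron markers are highest in M2627 and endothelial markers low in M2626 and M2627.

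When single libraries were left out, the log2 fold change stayed above 0 for each of the 6 tested genes. It ran from 1.70 without M2629 to 2.61 without M2631 for *Mbp*, from 0.37 to 0.61 for *Pmp22*, from 0.60 to 0.94 for *Cnp*, from 0.50 to 1.12 for *Prx*, from 0.97 to 1.65 for *Mal* and from 1.26 to 1.82 for *Gpm6b*. Without M2631, all 6 genes had groups that did not overlap. Groups come apart more easily with fewer libraries, and the share over all genes was not computed for that split. Nothing is read from this count.

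**Figure D4:**
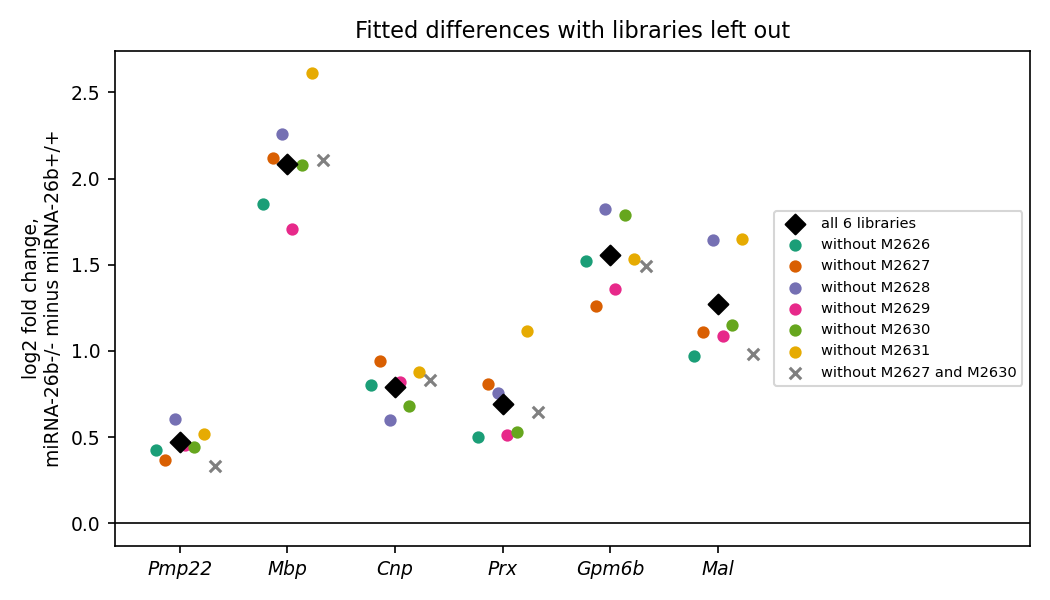
Fitted log2 fold change of each tested myelin gene (y axis, miRNA-26b-/- minus miRNA-26b+/+) with all libraries (black diamonds), with each library left out (coloured points) and without both M2627 and M2630 (crosses). All points lie above 0, those of *Mbp* run from 1.70 to 2.61, and those of *Gpm6b*, up to 1.82, reach into that range.

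Among the 11675 other genes with a mean of at least 5 CPM, the 10 whose pattern over the 6 libraries lay nearest to the mean pattern of the 8 myelin genes were *Trdmt1*, *Gm12592*, *Mus81*, *Carns1*, *Gm37422*, *Mrps11*, *1700030K09Rik*, *1700113A16Rik*, *Ska2* and *Pam16*. Their root mean square difference from it was from 0.132 to 0.192 on the log2 scale, over 6 libraries that share this contrast. The mean of the 8 includes *Pmp2*, at 0 in every library, and *Mag*, with counts in M2627 alone. It was highest in M2627 (0.68, against 0.59 in M2626, centred log2 CPM). The mean of the 6 tested genes was highest in M2626 (0.84, against 0.65 in M2627). When the pattern was taken from the 6 tested genes alone, 6 of the 10 were again among the nearest.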

How the data were processed

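RNA of 6 vessels was sequenced from TruSeq libraries, which keep no strand. The authors aligned reads to GRCm38 (mm10) with STAR and deposited whole-number counts per gene name, made by featureCounts 1.6.4 on GENCODE M21 with no strand option, a read on overlapping genes being added to all of them. Library totals ran from 25706728 (M2626) to 33345037 counts (M2627). A count of 0 was taken to allow up to 3 counts in every library, and library size sets the CPM of that floor. Counting intervals cover counting error only. The second deposited table, which lists read counts, log-scale values and the authors' own comparison (fold changes and p-values), was not used. From the counts, TMM factors and quasi-likelihood tests were computed with edgeR 4.0.16 (R 4.3.3, prior count 0.125) over the genes whose counts summed to 2 or more and that exceeded 1 CPM in 2 or more libraries, with Benjamini-Hochberg adjustment over all of them. Alternatives used DESeq2 1.42.0, limma 3.58.1, other normalizations and filters, and left out libraries. CPM here are relative to the TMM-scaled total of the genes tested.

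The 8 genes and all lists were chosen with earlier results of these data known, so none of the lists is independent evidence. All 8 are described. Of the myelin, lipid and regulator lists, genes with an unadjusted p under 0.05 and the 3 most abundant were to be named (some of them are not reported here), and of marker lists the most abundant plus *Th* and *Dbh*. Genes nearest in pattern were ranked by centred log2 CPM (pseudocount 0.5). Replicates are separate samples by their labels. The p-values set the difference between the genotypes against the spread between replicates, which the fit estimates with information shared across genes. No 2 libraries of a group agreed within sampling noise.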

Additional observations from a re-analysis of the deposited data

How the results depend on the processing

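The median log2 fold change of the 6 tested myelin genes lay between 0.89 and 1.33 under 15 alternatives, all of them above 0. The number with groups apart lay between 4 and 6 of 6 under 7. The share of all genes with groups apart was not computed under these alternatives, so nothing is read from that number. The order of their levels was the same in TPM as in RPKM. No match to the miR-26b-5p seed was found in any annotated 3′ UTR of the myelin genes, and miR-26b-3p was not searched. Counts of genes moved more. Past an adjusted p of 0.05 there were 57 genes with DESeq2, 3 with limma voom and 0 with the earlier quasi-likelihood method of edgeR, in place of 1, and the regulators past the unadjusted threshold were 2 with each of these 3, in place of 4. Without both M2627 and M2630, 607 genes passed the unadjusted threshold in place of 1036, 0 the adjusted one, 1 of the other myelin genes and 1 of the regulators. With single libraries left out, the unadjusted count ran from 686 (without M2631) to 1692 (without M2628), the adjusted count from 0 to 82, the other myelin genes from 4 to 7 and the regulators from 2 to 5. The causes were not tested. The profile of the 6 tested genes, chosen after seeing the data, kept 6 of the 10 nearest genes. No paired analysis was possible because the labels give no numbers that the groups share. Depth limits *Mag* and *Pmp2*, which were at or near 0, and groups of 3 libraries limit the rest.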
